A study of Mus musculus with 12 samples.

Results

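The MYC, MAX and MXD network was described here as 10 genes of the 23183 gene symbols listed in every library. The members were taken by symbol from the known family, namely *Myc*, *Mycl*, *Mycn*, *Max*, *Mxd1*, *Mxd3*, *Mxd4*, *Mxi1*, *Mnt* and *Mga*, and all 10 were listed. Within the network *Mycl* was chosen by its measured FPKM, because its difference between IR and Con ran in opposite directions in the cortex and the hippocampus of these same libraries. Its values are therefore given as a description without a p value, and tests are given only for the other 9 members.

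The study asked which genes differ in the brain long after cranial irradiation. The animals were male C57BL/6 mice, bought at the age of 7 weeks and kept for 1 week before treatment. Mice of the Con groups were sham-irradiated and mice of the IR groups received a single 10 Gy dose to the head, and RNA of the cortex and of the hippocampus was sequenced 3 months later. Each region had 3 Con and 3 IR libraries, 12 in all, and no engineered allele or other agent is named for any group. The labels do not say which libraries come from which mouse, so the p values measure the spread between these libraries, which may be partly technical.

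MYC proteins are transcription factors that bind DNA only as dimers with MAX, a small partner protein of the same helix-loop-helix and leucine zipper class. MAX also pairs with the MXD proteins, MXI1, MNT and MGA, which occupy the same kind of site and recruit repressor complexes, so activators and repressors compete for MAX and for DNA. MYC-MAX dimers are known for driving ribosome production, growth and the cell cycle in dividing cells, MYCN is best known from neural progenitors, and several MXD genes are expressed in cells that have left the cell cycle.

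The preferred site of these dimers is the E-box CACGTG, and CACGCG is a known variant of it. Both were searched on both strands in the promoter windows that RefSeq gives on GRCm38.p6, from 250 bases before to 50 bases after a gene's start. Of the 10 members, 9 had a window there, and *Myc* did not. The site CACGTG was found in windows of *Max*, *Mnt* and *Mxd4*, and in 7.15% of all 32851 windows. CACGCG was found in windows of *Mga* and *Mycl*, and in 9.27% of all windows. The 5 stretches that hold these matches are shown so that the members' promoters with a network motif can be read directly. Each is written 5′ to 3′ on the strand of the gene, with the match in capitals, and the match in *Mga* is the reverse complement of CACGCG. They are letter matches in a fixed window, not measured binding.
Mxd4: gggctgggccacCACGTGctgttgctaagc
Mnt: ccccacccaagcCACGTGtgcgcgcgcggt
Max: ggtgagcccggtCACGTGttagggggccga
Mga: agctggtaggagCGCGTGcgcagtgacgtg
Mycl: ccaagccccgggCACGCGacgagatataaa
On GRCm38.p6 these stretches lie at chr5:34187912-34187941 (minus strand) for *Mxd4*, chr11:74830789-74830818 (plus) for *Mnt*, chr12:76962234-76962263 (minus) for *Max*, chr2:119897195-119897224 (plus) for *Mga* and chr4:122995899-122995928 (plus) for *Mycl*. The *Mycl* gene itself spans chr4:122995652-123002485 on the plus strand in GENCODE M21, so this stretch lies inside the annotated extent of the gene.

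Levels are in FPKM, fragments divided by transcript length and by the mapped total of the library, so they can be compared between genes of different length. FPKM summed to 359773 to 393447 per library. The number of reads behind each value is unknown, as no read counts were used. The 3 dentate granule cell markers (*Prox1*, *Dsp*, *C1ql2*) summed to 4.08 to 6.16 FPKM in the cortex and 69.2 to 95.3 FPKM in the hippocampus, and the 4 cortical projection neuron markers to 87.5 to 104 FPKM and 20.4 to 23.9 FPKM, as the region labels say. *Ttr*, which marks choroid plexus, stood at 1582, 1005 and 426 FPKM in hippocampus IR 1, hippocampus Con 2 and cortex IR 2, and at 55.6 FPKM or less elsewhere. Without hippocampus Con 3 the number of genes with an adjusted p under 0.05 in the hippocampus was 861, against 4 with it. Leaving out any other single hippocampus library gave 2 or 3. Results there are also given without Con 3, a setting singled out after its count was seen. Calls that appear only without that library are therefore descriptive. The column names of cortex and hippocampus libraries end in different strings, so region and processing run, if runs differed, cannot be told apart.

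**Figure D1:**
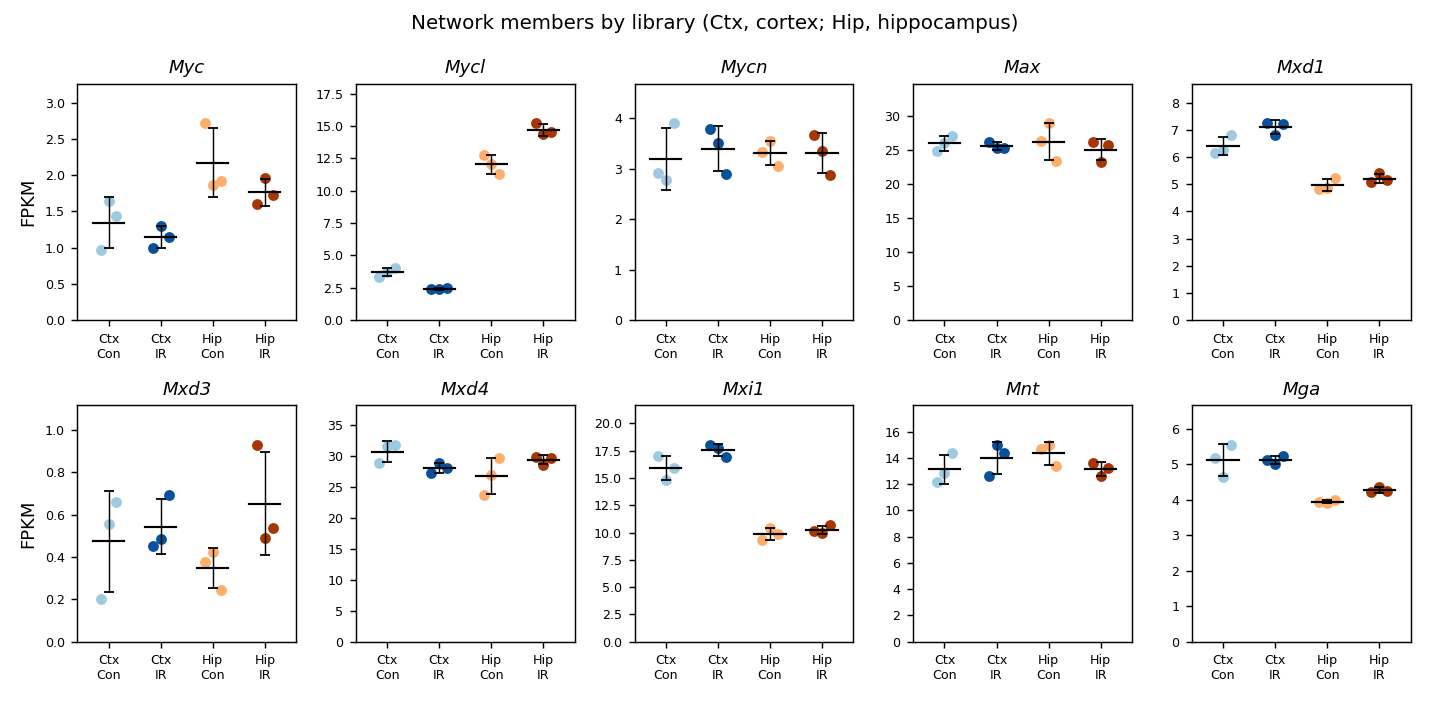
FPKM of the 10 network members in each library (points), with the mean and SD of each group of 3 libraries (bars), each panel on its own linear axis from 0. *Mycl* is the member with separated Con and IR groups in both regions, at 3.36 to 4.001 against 2.37 to 2.47 FPKM in the cortex and 11.3 to 12.7 against 14.4 to 15.2 FPKM in the hippocampus.

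*Mycl* was the MYC gene whose Con and IR libraries did not overlap in either region, in opposite directions. *Mycl* encodes L-MYC, the least studied of the 3 MYC proteins, first known from its amplification in small cell lung cancer. In the cortex its FPKM was 3.36, 3.71 and 4.001 in Con and 2.38, 2.37 and 2.47 in IR. Every cortex IR library lay below every Con library, and the IR libraries lay close together. The group means were 3.69 ± 0.321 and 2.40 ± 0.0556 FPKM (SD, n = 3), a ratio of 0.651. In the hippocampus its FPKM was 12.7, 12.04 and 11.3 in Con and 15.2, 14.4 and 14.5 in IR. There every IR library lay above every Con library, with means of 12.04 ± 0.707 and 14.7 ± 0.468 FPKM (SD, n = 3) and a ratio of 1.22. On the log2(FPKM + 1) scale, which understates the change of low genes, cortex IR differed from cortex Con by -0.46 and hippocampus IR from hippocampus Con by 0.27. The hippocampal minus the cortical difference was 0.73.

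Because this pattern chose *Mycl*, its place among all genes is only descriptive. Groups that did not overlap in either region, lower in the cortex and higher in the hippocampus, were seen for 66 of 14459 genes (0.456%). In bulk tissue, fewer cells of a type and less RNA per cell cannot be told apart.

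Other cell type markers also differed between these groups. The 4 microglia markers summed to 53.2 to 59.0 FPKM in cortex Con, 35.0 to 51.7 FPKM in cortex IR, 57.0 to 61.5 FPKM in hippocampus Con and 40.1 to 42.5 FPKM in hippocampus IR. The dentate granule cell sum was 69.2 to 91.0 FPKM in hippocampus Con and 87.5 to 95.3 FPKM in hippocampus IR, and *Prox1* alone was 14.4, 16.6 and 16.7 FPKM in Con and 21.1, 18.8 and 19.6 FPKM in IR. The cortical projection neuron sum overlapped between cortex Con (87.5 to 104 FPKM) and cortex IR (93.0 to 100.2 FPKM), and no gene of any marker list was at 0 in every library. The 4 endothelial markers summed to 48.2 to 58.1 FPKM in cortex Con and 58.3 to 68.8 FPKM in cortex IR, and to 44.1 to 48.9 FPKM in hippocampus Con and 53.5 to 55.6 FPKM in hippocampus IR. The 4 oligodendrocyte markers summed to 926 to 1142 FPKM in cortex Con and 1158 to 1398 FPKM in cortex IR, and overlapped in the hippocampus, at 965 to 1167 and 889 to 1140 FPKM. The sums of both lists were thus higher in IR in the cortex, and the endothelial one in the hippocampus too. Among single oligodendrocyte markers, *Mog* was 17.1 to 20.02 FPKM in hippocampus Con and 14.2 to 15.7 FPKM in hippocampus IR, and *Mag* was 41.5 to 53.2 and 32.2 to 39.1 FPKM, so that both lay lower in IR without overlap. In the hippocampus 19.8% of all tested genes had groups without overlap, a share that stands beside each single hippocampal marker named here. At an unadjusted p under 0.05, 2 of the 4 oligodendrocyte markers were higher in the cortex (8.16% of all genes were), 2 of 4 lower in the hippocampus (6.89%) and 3 of 4 lower for the interaction (5.61%). Their median log2 values were 0.16, -0.27 and -0.39, and 0 of 4 passed the adjusted threshold in any of these. Without hippocampus Con 3 the endothelial marker *Cldn5* passed it in the hippocampus (0.38, adjusted p = 0.0461 from limma), where 6.13% of all genes did. The 4 astrocyte markers overlapped in the cortex and summed to 267 to 271 FPKM in hippocampus Con and 239 to 244 FPKM in hippocampus IR. The 5 markers of dividing cells and neuroblasts summed to 7.84 to 9.004 FPKM in cortex Con and 6.39 to 7.54 FPKM in cortex IR, and overlapped in the hippocampus. Most of that sum was *Dcx* and *Sox11*, and the other 3 markers did not pass the filter on low values and were not tested. Of these, *Top2a*, a topoisomerase of dividing cells, was 0.405, 0.188 and 0.297 FPKM in hippocampus Con and 0.122, 0.135 and 0.136 FPKM in hippocampus IR, without overlap, and *Igfbpl1*, a neuroblast marker, was 0.927, 0.266 and 0.507 FPKM and 0.382, 0.104 and 0.0833 FPKM, with overlap. The 3 meningeal fibroblast markers had median log2 differences in the directions of *Mycl*, at -0.16 (cortex) and 0.52 (hippocampus), while their sums overlapped in both regions (11.1 to 15.8 and 9.36 to 13.7 FPKM, then 10.02 to 22.5 and 19.7 to 29.8 FPKM). One of them, *Slc6a13*, was 1.07 to 2.55 FPKM in hippocampus Con and 2.79 to 3.303 FPKM in hippocampus IR, without overlap, at 0.67 on the log2 scale (adjusted p = 0.259 from limma). Without hippocampus Con 3 it passed the adjusted threshold in the hippocampus (0.89, adjusted p = 0.0195 from limma) and for the interaction (0.90, adjusted p = 0.0486 from limma), where 3.37% of all genes did. Sums of the neuron, oligodendrocyte precursor and choroid plexus lists overlapped in both regions. *Csf1r*, a microglial receptor, was 8.84, 18.0 and 8.89 FPKM in cortex IR 1 to 3, and *Mycl* was 2.38, 2.37 and 2.47 FPKM in the same libraries. The cortical log2 difference of *Csf1r* was -0.80 (adjusted p = 0.276 from limma). Cortex IR 2 was the IR library nearest to cortex Con (19.8 to 21.1 FPKM). Only with that library left out did *Csf1r* pass the adjusted threshold there (-1.12, adjusted p = 0.000559 from limma), where 0.199% of all genes did. In the hippocampus it was 22.3, 20.5 and 24.1 FPKM in Con and 12.03, 11.7 and 12.2 FPKM in IR, and it was 1 of the 4 genes called there (-0.84, adjusted p = 0.0126 from limma). At an unadjusted p under 0.05, 4 of the 4 microglia markers were lower in the hippocampus (6.89% of all genes were) and 2 of 4 in the cortex (5.94%). The part of these cell types in the *Mycl* values was not tested.

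*Myc*, which encodes c-MYC, was low in both regions. It was listed at 0.961, 1.64 and 1.44 FPKM in cortex Con and 0.9996, 1.30 and 1.15 FPKM in cortex IR, and the groups overlapped. In the hippocampus it stood at 2.72, 1.87 and 1.92 FPKM in Con and 1.599, 1.96 and 1.73 FPKM in IR, again with overlap and with Con 1 the highest of all libraries. The log2 difference was -0.12 (SE 0.12, adjusted p = 0.723 from limma) in the cortex and -0.19 (SE 0.12, adjusted p = 0.497 from limma) in the hippocampus. Leaving out single libraries gave -0.24 to -0.03 in the cortex and -0.26 to -0.07 in the hippocampus.

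*Mycn*, which encodes N-MYC, was 2.92, 2.78 and 3.90 FPKM in cortex Con and 3.78, 3.51 and 2.90 FPKM in cortex IR. In the hippocampus it was 3.32, 3.54 and 3.05 FPKM in Con and 3.67, 3.36 and 2.88 FPKM in IR. Groups overlapped in both regions, with log2 differences of 0.07 (adjusted p = 0.844 from limma) and -0.00 (adjusted p = 0.992 from limma).

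*Max*, the shared partner, was among the most abundant members and stood at a like level in every group. Its FPKM was 24.8, 26.0 and 27.1 in cortex Con, 26.2, 25.2 and 25.3 in cortex IR, 26.3, 28.9 and 23.4 in hippocampus Con, and 26.2, 23.3 and 25.6 in hippocampus IR. IR and Con overlapped in both regions. The log2 difference was -0.02 (95% interval -0.14 to 0.10, adjusted p = 0.910 from limma) in the cortex and -0.06 (-0.26 to 0.14, adjusted p = 0.768 from limma) in the hippocampus.

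Of the repressor partners, *Mxi1* and *Mxd1* stood higher in cortex IR on average without passing the test. *Mxi1*, whose protein is a MAX partner that antagonizes MYC, was 17.0, 14.8 and 15.9 FPKM in cortex Con and 18.0, 17.7 and 16.9 FPKM in cortex IR, where the lowest IR library lay just below the highest Con library. Its log2 difference was 0.14 (SE 0.07, 95% interval -0.01 to 0.28, adjusted p = 0.377 from limma). *Mxd1*, induced as many cell types differentiate, was 6.15, 6.28 and 6.80 FPKM in cortex Con and 7.26, 6.80 and 7.23 FPKM in cortex IR, with a log2 difference of 0.13 (SE 0.07, adjusted p = 0.447 from limma). In the hippocampus *Mxi1* was 9.32, 10.4 and 9.84 FPKM in Con and 10.1, 9.95 and 10.7 FPKM in IR. There *Mxd1* was 4.83, 4.87 and 5.24 FPKM in Con and 5.08, 5.41 and 5.14 FPKM in IR. Both genes overlapped between the groups, with log2 differences of 0.05 (adjusted p = 0.736 from limma) and 0.06 (adjusted p = 0.741 from limma).

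*Mxd4* was the most abundant member on average in all 4 groups. In the cortex it was 28.8, 31.5 and 31.8 FPKM in Con and 27.2, 28.8 and 28.1 FPKM in IR, so that the highest IR library touched the lowest Con library. Hippocampal values of *Mxd4* were 23.7, 26.8 and 29.6 FPKM in Con, a wide spread, and 29.9, 28.6 and 29.7 FPKM in IR. The log2 difference was -0.12 (SE 0.06, 95% interval -0.25 to 0.00, adjusted p = 0.370 from limma) in the cortex and 0.14 (SE 0.08, -0.06 to 0.33, adjusted p = 0.472 from limma) in the hippocampus. Without hippocampus Con 3 the latter was 0.21 (adjusted p = 0.116 from limma), and leaving out each hippocampus library in turn gave 0.06 to 0.21.

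*Mxd3*, a member tied to dividing cells, lay near the limit of what was tested. It was 0.204, 0.556 and 0.659 FPKM in cortex Con and 0.453, 0.486 and 0.691 FPKM in cortex IR, with a log2 difference of 0.08 (adjusted p = 0.848 from limma). In the hippocampus it was 0.377, 0.421 and 0.245 FPKM in Con and 0.929, 0.489 and 0.536 FPKM in IR. The hippocampal groups did not overlap, but only 2 libraries reached 0.5 FPKM, under the minimum of 3, and *Mxd3* was not tested there. With no filter on low values its log2 difference was 0.29 (adjusted p = 0.427 from limma). Exons of *Mxd3* overlap *Prelid1* on the opposite strand in GENCODE M21, those of *Mxd4* overlap *Gm42846* and those of *Mxi1* overlap *Gm10197*. The libraries were made with a directional kit, which keeps the strand. Whether the quantification then used it is not given in the sources used here, so reads of such partners may not have been told apart.

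*Mnt*, the repressor expressed in most cells, was 12.1, 12.9 and 14.3 FPKM in cortex Con and 12.6, 15.0 and 14.4 FPKM in cortex IR. Hippocampal values of *Mnt* were 14.6, 15.0 and 13.4 FPKM in Con and 13.6, 12.6 and 13.3 FPKM in IR, where only Con 3 reached into the range of IR. The log2 difference was 0.09 (adjusted p = 0.683 from limma) and -0.12 (SE 0.07, adjusted p = 0.462 from limma), and -0.16 (adjusted p = 0.175 from limma) in the hippocampus without Con 3. Leaving out each hippocampus library in turn gave -0.16 to -0.09 there.

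*Mga* encodes the largest protein of the network, which also carries a T-box domain and is a scaffold of the repressive complex PRC1.6. It was 5.18, 4.64 and 5.54 FPKM in cortex Con and 5.12, 5.001 and 5.22 FPKM in cortex IR, with a log2 difference of 0.00 (95% interval -0.18 to 0.18). Hippocampal values of *Mga* were 3.93, 3.91 and 3.99 FPKM in Con and 4.21, 4.36 and 4.25 FPKM in IR. Every hippocampal IR library lay above every Con library, by a log2 difference of 0.09 (SE 0.07, 95% interval -0.07 to 0.26, adjusted p = 0.563 from limma).

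In counts, none of the 9 members other than *Mycl* passed an adjusted p under 0.05 for IR against Con in the cortex, where 0.725% of 14065 tested genes did. At an unadjusted p under 0.05 the count was also 0 of 9, where 14.1% of all tested genes passed, and 0 of 9 had groups without overlap, against 20.3%. In the hippocampus 0 of 8 tested members passed the adjusted threshold (0.0285% of 14043 genes) and 0 of 8 the unadjusted one (13.9%), and *Mga* was the 1 tested member with groups that did not overlap (19.8% of genes). On the log2 scale the 95% intervals of these members reached from -0.39 (*Myc*) to 0.38 (*Mxd3*) in the cortex. In the hippocampus they reached from -0.47 (*Myc*) to 0.33 (*Mxd4*). These are the outermost bounds over different genes, and the cortical intervals of *Max* and *Mga* given above were narrower. For each member, changes within its own interval could not be told from none.

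**Figure D2:**
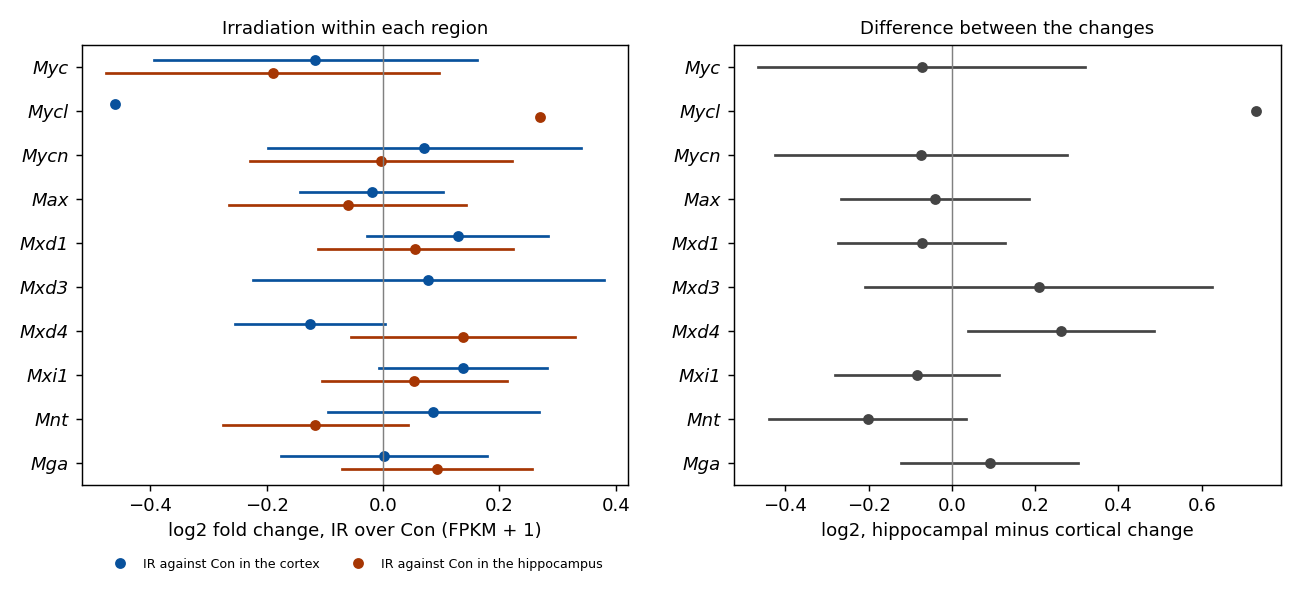
Log2 fold change of IR over Con on the FPKM + 1 scale for each member in the cortex and the hippocampus (left) and the hippocampal minus the cortical change (right), as points with 95% intervals from limma, and for *Mycl*, which was not tested, as points alone. *Mycl* lies at -0.46 and 0.27 on the left and at 0.73 on the right, and *Mxd3* has no hippocampal value because it did not pass the filter there.

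The test of the difference between the 2 regions' changes, fitted over all 12 libraries, found 0 of 9 members past an adjusted p under 0.05, where 0.083% of 14459 genes passed. At an unadjusted p under 0.05 it found 1 of 9, *Mxd4*, where 10.4% of all genes passed. The hippocampal minus the cortical change of *Mxd4* was 0.26 (SE 0.10, 95% interval 0.04 to 0.48, adjusted p = 0.415 from limma), in the same direction as that of *Mycl*. It was 0.34 (adjusted p = 0.0605 from limma) without hippocampus Con 3, and 0.18 to 0.34 with each library left out in turn. For *Mnt* the value was -0.20 (SE 0.11, adjusted p = 0.538 from limma). The other 7 members lay between -0.08 and 0.21.

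Between the regions in Con mice, more members passed the test than between Con and IR, as did more of all genes. *Mycl* was 3.26 times as high in the hippocampus as in the cortex in Con and 6.11 times as high in IR. Of the other 9 members, 5 passed an adjusted p under 0.05, where 44.2% of 14459 genes passed. *Myc* was the 1 member higher in the hippocampus (23.6% of all genes were), with means of 1.35 ± 0.348 FPKM in the cortex and 2.17 ± 0.477 FPKM in the hippocampus (SD, n = 3) and a log2 difference of 0.44 (SE 0.13, adjusted p = 0.0142 from limma). This call was lost without cortex Con 1 (adjusted p = 0.0719 from limma) and without hippocampus Con 1 (adjusted p = 0.0647 from limma).

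The 4 members lower in the hippocampus were all repressor partners, *Mxi1*, *Mxd1*, *Mga* and *Mxd4*, where 20.6% of all genes were lower. Repressor partners make up most of the tested members. *Mxi1* differed most, at 15.9 ± 1.11 FPKM in the cortex and 9.85 ± 0.540 FPKM in the hippocampus (SD, n = 3), a log2 difference of -0.64 (SE 0.06, adjusted p = 3.6e-06 from limma). *Mxd1* was 6.41 ± 0.346 and 4.98 ± 0.229 FPKM, lower by a log2 difference of -0.31 (SE 0.07, adjusted p = 0.00182 from limma). *Mga* was 5.12 ± 0.455 and 3.94 ± 0.0422 FPKM, with a log2 difference of -0.31 (SE 0.07, adjusted p = 0.00304 from limma). For these 3 genes every hippocampus Con library lay below every cortex Con library, as for 23.1% of all genes. *Mxd4* overlapped between the regions, and its log2 difference of -0.20 (SE 0.07, adjusted p = 0.0422 from limma) lost the call in 13 of 19 alternative fits, among them those without hippocampus Con 1 (adjusted p = 0.180 from limma) and without the 3 libraries highest in *Ttr* (adjusted p = 0.119 from limma). *Mnt* (0.12), *Mycn* (0.04), *Max* (0.01) and *Mxd3* (-0.12) did not pass the test, with adjusted p of 0.225, 0.783, 0.926 and 0.517 from limma.

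**Figure D3:**
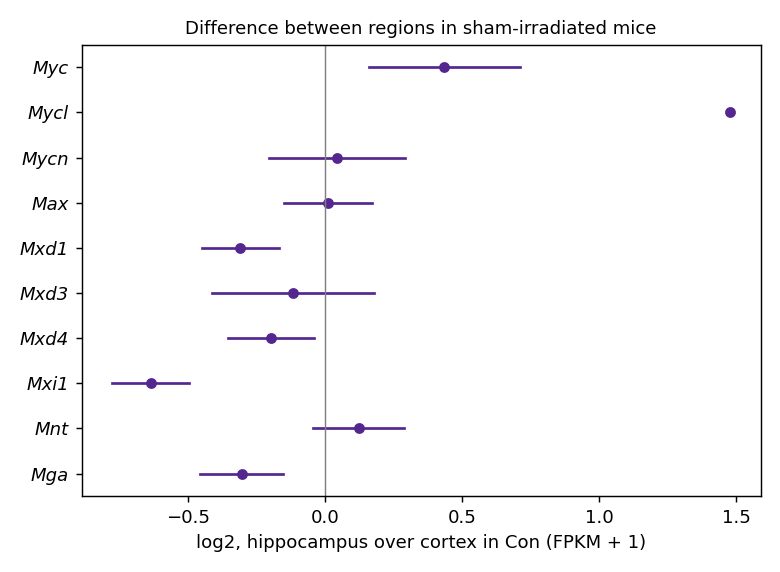
Log2 difference of the hippocampus from the cortex in Con libraries, on the FPKM + 1 scale, for each member as a point with its 95% interval from limma, and for *Mycl*, which was not tested, as a point alone. *Mycl* (1.48) and *Myc* (0.44) lie to the right of 0, and *Mxi1* (-0.64), *Mxd1* (-0.31), *Mga* (-0.31) and *Mxd4* (-0.20) to the left with intervals that leave out 0.

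In the order of levels within each group, *Mycl* held the widest range of places. In cortex Con the order was *Mxd4*, *Max*, *Mxi1*, *Mnt*, *Mxd1*, *Mga*, *Mycl*, *Mycn*, *Myc* and *Mxd3*, and *Mycl* and *Mycn* were the only neighbours whose libraries overlapped. *Mycl* stood 7th there and 8th in cortex IR, where all 3 *Mycn* libraries lay above all 3 *Mycl* libraries. In hippocampus Con it stood 4th, after *Mxd4*, *Max* and *Mnt*, with *Mxd4* and *Max* overlapping. It was 3rd in hippocampus IR, where its lowest library (14.4 FPKM) lay above the highest *Mnt* library (13.6 FPKM).

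Summed over *Myc*, *Mycn* and *Mycl*, the MYC family stood at 7.24, 8.12 and 9.34 FPKM in cortex Con and 7.16, 7.18 and 6.52 FPKM in cortex IR. In the hippocampus the sum was 18.8, 17.4 and 16.3 FPKM in Con and 20.5, 19.7 and 19.1 FPKM in IR. The IR libraries lay below Con in the cortex and above Con in the hippocampus without overlap, and *Mycl* made up 45.0 ± 1.88% of the sum in cortex Con, 34.7 ± 2.76% in cortex IR, 68.8 ± 0.848% in hippocampus Con and 74.4 ± 1.47% in hippocampus IR (SD, n = 3). Without *Mycl*, the sum of *Myc* and *Mycn* was 4.54 ± 0.738, 4.55 ± 0.431, 5.48 ± 0.537 and 5.07 ± 0.397 FPKM in the same order of groups.

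Set against their shared partner, the MYC genes summed to 0.317 ± 0.0268 per unit of *Max* in cortex Con, 0.272 ± 0.0135 in cortex IR, 0.671 ± 0.0597 in hippocampus Con and 0.791 ± 0.0504 in hippocampus IR (SD, n = 3). The repressor partners together stood well above the MYC genes in every library. The MYC family divided by *Mxd1*, *Mxd3*, *Mxd4*, *Mxi1*, *Mnt* and *Mga* together was 0.115 ± 0.0101, 0.0962 ± 0.00579, 0.292 ± 0.0351 and 0.314 ± 0.0116. The whole network summed to a like level in the 4 groups, with means of 106, 105, 104 and 108 FPKM. These are levels of mRNA and say nothing of protein or of dimers, and because the sums hold *Mycl* they are given without a test.

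**Figure D4:**
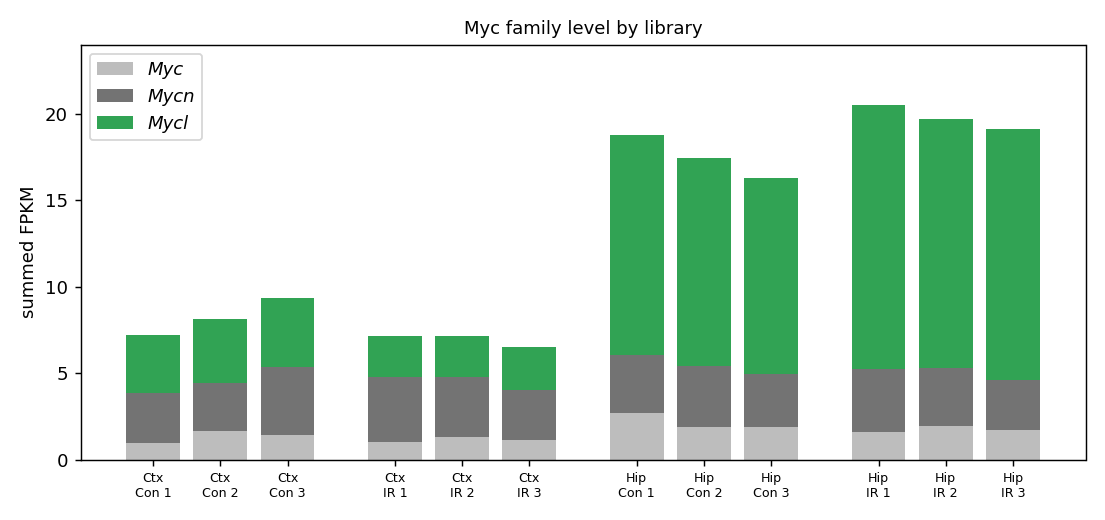
Summed FPKM of *Myc*, *Mycn* and *Mycl* in each of the 12 libraries (stacked bars from 0, Ctx for cortex and Hip for hippocampus). The green *Mycl* part is the one that differs visibly between groups, and the sum runs from 6.52 FPKM in cortex IR 3 to 20.5 FPKM in hippocampus IR 1.

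MLX is a MAX-like protein that pairs with the glucose-sensing factors encoded by *Mlxip* and *Mlxipl* and shares some MXD partners. Of these 3 genes, 0 passed an adjusted p under 0.05 with irradiation in either region. *Mlxip* passed an unadjusted p under 0.05 in the cortex (8.16% of all genes were higher at that level), at 6.00, 5.91 and 6.36 FPKM in Con and 7.22, 6.74 and 7.49 FPKM in IR. Every IR library lay above every Con library, with a log2 difference of 0.20 (SE 0.07, adjusted p = 0.252 from limma).

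The repressor partners work through SIN3 and related corepressors, which bring histone deacetylases to DNA. Of 11 such genes 0 passed the adjusted threshold with irradiation in either region. At an unadjusted p under 0.05, 1 was lower in each region, *Hdac1* in the cortex, where 5.94% of all genes were lower, and *Sap18* in the hippocampus, where 6.89% were. *Hdac1*, which encodes a histone deacetylase of these complexes, was 11.9, 12.2 and 12.1 FPKM in cortex Con and 9.95, 10.1 and 10.2 FPKM in cortex IR, a separation with a log2 difference of -0.24 (SE 0.06, adjusted p = 0.103 from limma). In the hippocampus its groups overlapped, at 14.8 to 18.0 FPKM in Con and 15.5 to 17.9 FPKM in IR, and its hippocampal minus cortical change was 0.27 (SE 0.10, adjusted p = 0.402 from limma). *Sap18*, another SIN3-associated gene, had a hippocampal log2 difference of -0.22 (adjusted p = 0.321 from limma). Between regions in Con mice 8 of the 11 were higher in the hippocampus at an adjusted p under 0.05 and 0 were lower, while 23.6% of all genes were higher.

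The partners of MGA in PRC1.6 gave 0 of 10 genes past the adjusted threshold in either region. In the cortex 3 of 10 passed the unadjusted one, all higher, where 8.16% of all genes were higher at that level. *E2f6*, which encodes the DNA-binding repressor of the complex, was 11.1, 11.6 and 11.2 FPKM in cortex Con and 15.4, 13.5 and 14.2 FPKM in cortex IR. Its groups lay apart, with a log2 difference of 0.32 (SE 0.06, adjusted p = 0.0650 from limma), while in the hippocampus they overlapped and the difference was 0.06 (adjusted p = 0.769 from limma). The hippocampal minus cortical change of *E2f6* was -0.26 (SE 0.11, adjusted p = 0.446 from limma). *Tfdp1*, its dimer partner, and *Rybp*, a subunit of the complex, both had cortical log2 differences of 0.20 (adjusted p = 0.181 and 0.327 from limma). Without hippocampus Con 3, *Cbx3*, which encodes a heterochromatin protein of the complex and is named after its values were seen, passed the adjusted threshold in the hippocampus (-0.38, adjusted p = 0.0326 from limma, against -0.24 and 0.394 with it) and for the interaction (-0.38, adjusted p = 0.0378 from limma). Without that library 6.13% of all genes passed in the hippocampus and 3.37% for the interaction.

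Of 10 genes for cofactors of MYC, 0 passed the adjusted threshold with irradiation in either region. *Zbtb17*, which encodes the MYC-binding factor MIZ1, was the 1 gene past the unadjusted threshold, higher in the cortex as were 8.16% of all genes, at 9.52, 10.01 and 10.4 FPKM in cortex Con and 11.5, 12.003 and 11.7 FPKM in cortex IR. The groups lay apart, with a log2 difference of 0.21 (SE 0.06, adjusted p = 0.180 from limma).

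MYC proteins are short-lived, and the kinase GSK3B and the ubiquitin ligase subunit FBXW7 mark them for degradation. Of 11 genes of MYC turnover that were listed, 0 passed the adjusted threshold with irradiation. In the hippocampus 2 passed the unadjusted one, both lower, where 6.89% of all genes were. *Fbxw7* was 58.8, 59.7 and 48.7 FPKM in hippocampus Con and 43.8, 44.7 and 44.3 FPKM in hippocampus IR, with Con 3 the closest to IR. Its log2 difference was -0.32 (SE 0.09, adjusted p = 0.254 from limma) in the hippocampus and -0.06 (adjusted p = 0.672 from limma) in the cortex, and the difference between the regions' changes was -0.26 (adjusted p = 0.423 from limma). Without hippocampus Con 3, *Fbxw7* passed the adjusted threshold in the hippocampus (-0.41, SE 0.05, adjusted p = 0.0195 from limma), where 6.13% of all genes did, and for the interaction (-0.35, adjusted p = 0.0298 from limma), where 3.37% did. *Gsk3b* was 38.9, 39.1 and 37.7 FPKM in hippocampus Con and 33.7, 33.0 and 34.8 FPKM in hippocampus IR, with a log2 difference of -0.18 (SE 0.06, adjusted p = 0.286 from limma).

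The classical growth targets of MYC were read from 25 genes of the nucleolus, translation and metabolism. None passed the adjusted threshold with irradiation in either region. In the cortex 15 of 25 had a log2 difference above 0, with a median of 0.02 against 0.00 over all genes, and 1 higher and 1 lower passed the unadjusted threshold, where 8.16% and 5.94% of all genes did. *Eif4a1*, a translation initiation helicase, had a log2 difference of 0.14 (adjusted p = 0.241 from limma) and *Srm*, spermidine synthase, of -0.22 (adjusted p = 0.205 from limma). In the hippocampus 18 of 25 had a log2 difference below 0, with a median of -0.09 against -0.01 over all genes. There 1 higher and 4 lower passed the unadjusted threshold, where 7.06% and 6.89% of all genes did.

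*Ccnd2*, which encodes cyclin D2 of the G1 phase, was 19.5, 21.3 and 21.4 FPKM in hippocampus Con and 27.6, 23.3 and 26.0 FPKM in hippocampus IR. All IR libraries lay above Con, with a log2 difference of 0.29 (SE 0.08, adjusted p = 0.257 from limma). *Nop58*, a nucleolar protein of box C/D particles, was 17.2, 17.1 and 15.4 FPKM in Con and 12.2, 14.8 and 13.7 FPKM in IR, all lower, with a log2 difference of -0.27 (SE 0.08, adjusted p = 0.278 from limma). The nucleolar helicase gene *Ddx21* had a log2 difference of -0.20 (adjusted p = 0.352 from limma). *Hspe1*, a mitochondrial chaperonin gene, was 111.7, 98.4 and 63.6 FPKM in Con and 67.9, 64.5 and 64.8 FPKM in IR, so that Con 3 lay below every IR library and the other Con libraries far above. Its log2 difference was -0.43 (SE 0.18, adjusted p = 0.351 from limma) with Con 3 and -0.67 (SE 0.07, adjusted p = 0.0134 from limma) without it. Without Con 3, 2 of the 25 passed the adjusted threshold in the hippocampus, both lower, *Hspe1* and *Npm1*, a nucleolar chaperone gene (-0.39, adjusted p = 0.0452 from limma), where 6.13% of all genes passed. For the interaction *Hspe1* (-0.70, adjusted p = 0.0187 from limma) and *Eif4a1* (-0.29, adjusted p = 0.0371 from limma) then passed, where 3.37% of all genes did. *Npm1* is named after its values were seen. Between regions in Con mice 12 of 25 were higher in the hippocampus at an adjusted p under 0.05 and 4 were lower, where 23.6% and 20.6% of all genes were, with *Ccnd2* at a log2 difference of 0.91 (SE 0.11, adjusted p = 2.11e-05 from limma).

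The pattern most like that of *Mycl* was sought among 13649 genes tested in both regions, by Pearson's r of log2(FPKM + 1) over the 12 libraries after taking off each region's mean. These libraries share region and irradiation, and possibly a processing run, so r is a description. The 5 closest genes were *Sap130* (r = 0.919), *Stom* (0.898), *2900079G21Rik* (0.884), *Rabgap1l* (0.878) and *Efna1* (0.872). *Sap130* had means of 11.6 ± 0.689 and 10.2 ± 0.396 FPKM in cortex Con and IR, and of 11.9 ± 0.413 and 12.5 ± 0.184 FPKM in hippocampus Con and IR (SD, n = 3). *Efna1*, which encodes the ligand ephrin-A1, had means of 4.03 ± 0.467 and 3.09 ± 0.266 FPKM in the cortex and of 2.58 ± 0.480 and 3.30 ± 0.433 FPKM in the hippocampus. Within the network the values of r with *Mycl* were 0.576 for *Mxd4*, 0.307 for *Mga*, 0.152 for *Myc*, 0.104 for *Max*, -0.04 for *Mycn*, -0.317 for *Mnt*, -0.410 for *Mxd1* and -0.506 for *Mxi1*.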

How the data were processed

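RNA-seq libraries of the cortex and hippocampus (3 Con and 3 IR each) were used as FPKM. Per the study's methods the authors trimmed reads with FASTX_Trimmer and BBMap, aligned them with TopHat, estimated FPKM with Cufflinks and normalized them geometrically; the submitters' processing notes name mm10. The deposited FPKM values were not rescaled. The labels name Trizol and total RNA, whereas the methods name an RNeasy kit and poly(A) selection, and this is not settled here.

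Genes that reached 0.5 FPKM in 3 or more libraries of a region (6 in all) were fitted as log2(FPKM + 1) in limma 3.58.1 (R 4.3.3) with a variance trend and robust prior, by region, and over all 12 libraries for the interaction and the region contrast. P values were adjusted over all tested genes (Benjamini-Hochberg). Differences have 95% intervals. Scripts were tested on simulated data. Figures used matplotlib 3.10.9.

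Members and lists were chosen with earlier results of these data known. All members are named with their value in every library. Of partner and target lists, genes with an unadjusted p under 0.05 were eligible to be named, at most 4 a list and region by smallest p, as were the 5 genes most like *Mycl*. The list of MYC turnover genes had 12 symbols, of which 11 were listed. Alternatives were a pseudocount of 0.1, no filter, at least 1 FPKM in every library, quantile normalization, no trend or robust prior, the library number as a block, a single fit of 12 libraries, leaving out each library, and, chosen after seeing the data, leaving out the 3 libraries highest in *Ttr*. Values of 1 gene of the corepressor list are not reported here. Read counts and the behavioural and PCR data were not used here.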

Additional observations from a re-analysis of the deposited data

Results flagged for a closer look

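*Mycl* differed between IR and Con in opposite directions in the 2 regions. All 3 cortex IR libraries (2.37 to 2.47 FPKM) lay below all 3 cortex Con libraries (3.36 to 4.001 FPKM), and all 3 hippocampus IR libraries (14.4 to 15.2 FPKM) lay above all 3 hippocampus Con libraries (11.3 to 12.7 FPKM). The hippocampal minus the cortical difference was 0.73 on the log2 scale. The difference between the regions was not tested here, because this pattern was the reason for looking at the gene.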

How the results depend on the processing

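With 3 libraries a group, and a depth in reads that is unknown, members near 1 FPKM such as *Myc* and *Mxd3* had the widest intervals. Of the 9 members tested, beside *Mycl*, which was not, 0 passed an adjusted p under 0.05 for irradiation or for the interaction in any alternative. The counts at an unadjusted p under 0.05 moved from 0 to 1 in the cortex with quantile normalization (*Mxd4*), from 0 to 1 in the hippocampus with no filter (*Mxd3*), and from 1 to 0 for the interaction without the 3 libraries highest in *Ttr*. Leaving out single libraries gave 0 to 2 in each of these, with 2 in the cortex without Con 1 (*Mxd4*, *Mxi1*) and 2 in the hippocampus and for the interaction without hippocampus Con 3 (*Mxd4*, *Mnt*). Leaving out single libraries gave 3 to 5 members called between regions, with 3 without hippocampus Con 1.

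Signs turned only for differences near 0. Quantile normalization gave -0.0054 for *Mga* in the cortex, 0.0058 for the *Max* interaction and -0.046 for *Max* between regions, which was -0.061 without the 3 libraries highest in *Ttr*. Leaving out single libraries gave, in the cortex, -0.00082 to 0.19 for *Mycn*, -0.050 to 0.010 for *Max*, -0.061 to 0.17 for *Mxd3* and -0.056 to 0.051 for *Mga*. In the hippocampus it gave -0.065 to 0.069 for *Mycn* and -0.14 to 0.010 for *Max*, for the interaction -0.16 to 0.051 for *Myc* and -0.12 to 0.030 for *Max*, and between regions -0.028 to 0.16 for *Mycn* and -0.061 to 0.087 for *Max*. The cause was not tested. At a pseudocount of 0.1 the *Mycl* differences were -0.59 in the cortex, 0.88 for the interaction and 1.68 between regions.

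Over all genes, those with an adjusted p under 0.05 in the cortex numbered 102, and 24 with no filter, 22 without trend or robust prior, 28 without the 3 libraries highest in *Ttr* and 17 to 77 with single libraries left out. In the hippocampus they numbered 4, and 2 with at least 1 FPKM in every library, 74 in the single fit, 1 without the 3 libraries highest in *Ttr* and 2 to 861 with single libraries left out. For the interaction they numbered 12, and 7 with no filter, 19 with at least 1 FPKM in every library, 0 without trend or robust prior, 0 without the 3 libraries highest in *Ttr* and 0 to 487 with single libraries left out.

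Deviations of same-numbered libraries correlated at -0.392 to 0.173. Differently numbered libraries were not compared, and whether same-numbered libraries come from the same mouse was not tested. With the library number as a replicate block, 0 members other than *Mycl* were called for irradiation in the cortex, 0 in the hippocampus, 0 for the interaction and 5 between regions, and 71, 1, 0 and 6117 of all genes.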
